A study of Mus musculus with 48 samples.

Results

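Vehicle-treated mouse kidneys collected at circadian time 16 (CT16) were set against vehicle-treated kidneys collected at CT4. The 8 libraries, 4 at each time, were taken by their treatment and time labels from the 48 libraries of the series, of which 24 came from vehicle animals. The other libraries came from kidneys of mice given D-alanine (labelled D-Ala), the mirror-image form of L-alanine, and from vehicle kidneys at CT0, CT8, CT12 and CT20. All samples were labelled wild type, and the labels give no strain, age, sex, dose, route or lighting schedule. The series text says that the kidneys came from different mice. Each of the 2 deposited tables holds 2 libraries of every group, and replicates 1 and 2 below are those of the first table and 3 and 4 those of the second.

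The circadian clock of mammalian cells is a loop of transcription. The activators CLOCK or NPAS2 and BMAL1 (gene Arntl) drive the Period and Cryptochrome genes through E-box elements, and the PER and CRY proteins then repress the activators. A second arm sets the activator genes through the nuclear receptors REV-ERB, which repress, and ROR, which activate, and the bZIP proteins DBP, TEF and HLF carry the rhythm to further genes. Circadian time counts hours of the animal's own cycle. In mice, which are active at night, CT4 falls in the subjective day and CT16 in the subjective night. In kidney the clock is known for daily rhythms of filtration and of salt and nutrient transport.

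Depth was 9993529 to 14403230 fragments in the 8 libraries. Levels are FPKM (fragments scaled by exon length and library size), and log2 changes are CT16 minus CT4 on the log2(FPKM + 1) scale, with the SE of limma, which understates changes of low genes. An adjusted p is limma's, with Benjamini-Hochberg adjustment over all 13633 genes tested, and the threshold was 0.05. Mitochondrially encoded genes took 16.9% to 38.7% of all FPKM at CT4 and 20.4% to 47.0% at CT16, with higher shares in the first table. Proximal tubule markers summed to 4956 to 6613 FPKM at CT4 and 4104 to 5649 at CT16, and all 9 were measured. Of 6 adrenal cortex markers, Cyp11b1 and Cyp11b2 were at 0 in all 8 libraries. The 6 summed to 0.344 to 0.887 FPKM at CT4 and 0.401 to 0.847 at CT16. Of 5 skeletal muscle markers, Ckm and Myh4 were at 0 in all 8 libraries. The 5 summed to 0.063 to 0.419 FPKM at CT4 and 0 to 0.260 at CT16.

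Kidneys at CT16 had more RNA of the clock repressors Per2, Per3, Per1 and Cry1, and less of Nr1d1 and Npas2, than kidneys at CT4. RNA of the amino acid transporters Slc6a19 and Slc7a7 and of the growth factor binding protein gene Igfbp1 was lower at CT16. RNA of the clock outputs Tsc22d3 and Noct and of the mitochondrial carrier gene Slc25a25 was higher. Of the 13633 genes tested, 332 passed the threshold (2.44%). At CT16, 146 of them were higher (1.07%) and 186 lower (1.36%). All 332 moved the same way in both tables, but they were chosen by a fit to both tables, which favours such genes. Of the 332, 27 rose and 19 fell by at least 1 log2 unit. The median over all genes was -0.02. With any 1 of the 8 libraries left out, 166 (without CT4 replicate 1) to 238 (without CT4 replicate 2) genes passed, and the count was below 332 by over 1.5 times without CT4 replicate 1, 3 or 4 or CT16 replicate 2, 3 or 4. The split of directions depended on the scaling. When values were rescaled without mitochondrially encoded genes, 333 genes passed, 231 higher and 102 lower, so that 69.4% of calls were higher against 44.0% on the deposited scale. The 8 libraries did not overlap for 110 of the 146 higher genes, beside 2.41% of all genes tested, and for 108 of the 186 lower genes, beside 2.83% of all genes tested.

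**Figure D1:**
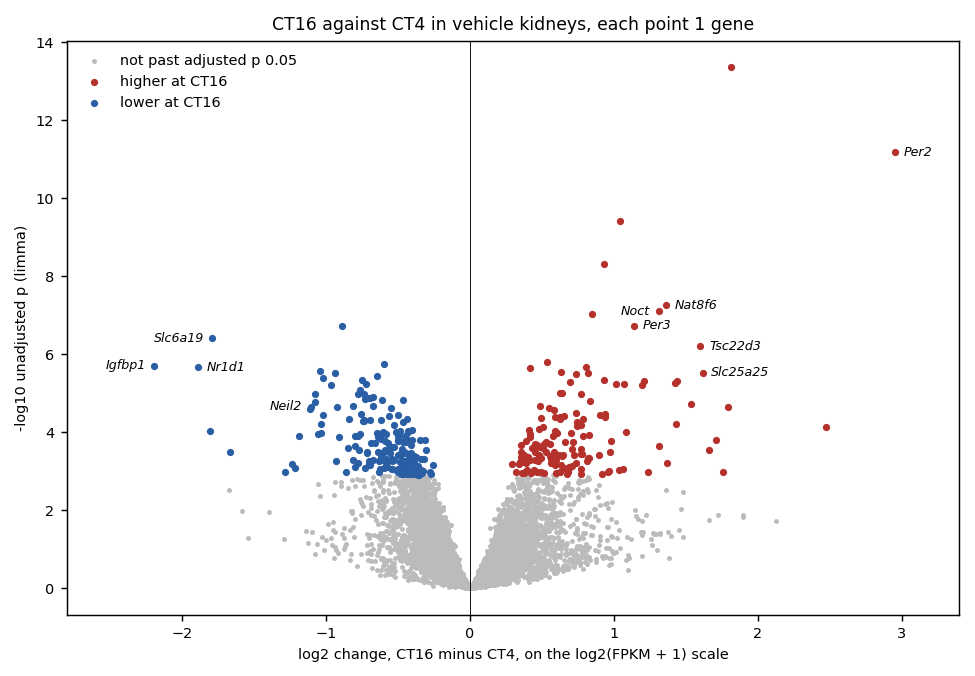
Each point is 1 of the 13633 genes tested, with the log2 change (CT16 minus CT4, log2(FPKM + 1) scale) on the horizontal axis and -log10 of the unadjusted limma p on the vertical axis. The 146 genes higher at CT16 are red and the 186 lower genes blue, and Per2 lies farthest to the right.

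The E-box repressors moved together. Of 7 members tested, 6 rose and none fell, and their median change was 1.09. The 6 calls became 3 without CT4 replicate 1, 4 on the TPM scale and 1 in the first table alone, while all 7 changes stayed above 0. The promoters of 3 of them are shown because they hold a match to an element through which the clock is known to act. They are RefSeq windows of the 250 bases before the start site on GRCm38.p6, given 5′ to 3′ on the strand of the gene, with the element in capitals. The Cry1 window is chr10:85185055-85185304 on the minus strand, with the E-box CACGTG at -60 to -55 from the start. The Per1 window is chr11:69098699-69098948 on the plus strand, with CACGTG at -166 to -161. The Per3 window is chr4:151044666-151044915 on the minus strand, with the D-box TTATGTAA at -205 to -198 and again at -158 to -151.
Cry1: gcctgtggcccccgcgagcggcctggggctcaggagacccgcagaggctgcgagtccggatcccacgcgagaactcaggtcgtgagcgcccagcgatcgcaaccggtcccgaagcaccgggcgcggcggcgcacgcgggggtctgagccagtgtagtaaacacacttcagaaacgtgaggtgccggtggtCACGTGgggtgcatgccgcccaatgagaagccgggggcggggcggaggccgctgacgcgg
Per1: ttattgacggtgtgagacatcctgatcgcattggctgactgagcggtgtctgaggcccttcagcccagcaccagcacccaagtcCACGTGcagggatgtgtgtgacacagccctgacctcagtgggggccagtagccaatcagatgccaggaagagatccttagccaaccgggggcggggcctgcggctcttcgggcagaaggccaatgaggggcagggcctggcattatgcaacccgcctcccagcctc
Per3: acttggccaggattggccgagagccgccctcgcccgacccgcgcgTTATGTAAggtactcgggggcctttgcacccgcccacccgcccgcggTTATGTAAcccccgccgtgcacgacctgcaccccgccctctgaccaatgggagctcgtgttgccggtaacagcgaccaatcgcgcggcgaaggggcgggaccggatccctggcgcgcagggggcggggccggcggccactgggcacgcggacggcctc
The search covered CACGTG, the D-box letters TTATGTAA and TTACGTAA, and the ROR and REV-ERB element TAGGTCA, on both strands of windows that also held the 50 bases after the start. Of all 32851 windows in the table, 7.15% hold the E-box letters, 1.06% the D-box letters and 2.61% the ROR and REV-ERB letters. Of the 18 clock genes tested, 15 had a window, and Per2 and Bhlhe40 were among those with none. Of the 10 clock genes past the threshold, 7 had a window and 3 a match. Matches also lay in windows of Ciart (3 E-boxes), Tef (1 E-box in each of its windows), Arntl and Nfil3 (1 TAGGTCA each), which did not pass the threshold.

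Per2, a Period repressor (ENSMUSG00000055866, chr1:91415982-91459324 on GRCm38), had the largest rise of any gene tested. Its level was 2.20, 3.95, 2.69 and 1.68 FPKM in the CT4 libraries and 25.3, 29.3, 21.7 and 30.3 FPKM in the CT16 libraries. Every CT16 library lay above every CT4 library, by 10.1-fold between the means. The change was 2.96 ± 0.21 log2 (adjusted p = 4.4e-08), with 2.83 in the first table and 3.08 in the second.

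Cry1, which encodes the cryptochrome that represses CLOCK and BMAL1 (chr10:85131700-85185064), stood at 1.47, 0.624, 0.474 and 0.855 FPKM at CT4 and 3.73, 3.08, 4.67 and 4.24 FPKM at CT16. The groups did not overlap, and the change was 1.43 ± 0.24 log2 (adjusted p = 0.0024). The CT4 levels of Cry1 rest on 16 to 69 fragments per library. Per3, a Period gene (chr4:151003652-151044665), rose from 3.05, 3.95, 2.97 and 1.72 FPKM to 8.12, 6.77, 6.75 and 8.32 FPKM. Its change was 1.14 ± 0.15 log2 (adjusted p = 0.00028), again with no overlap. Per1, the Period gene that also answers to glucocorticoids (chr11:69095217-69109960), measured 2.88, 5.93, 2.60 and 2.95 FPKM at CT4 and 10.5, 6.04, 9.33 and 8.27 FPKM at CT16. CT4 replicate 2 and CT16 replicate 2 nearly met. The Per1 change of 1.09 ± 0.23 log2 (adjusted p = 0.013) was not called without CT4 replicate 1 (0.96 log2, adjusted p = 0.053).

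The remaining pair of called repressors moved less. Cry2, the second cryptochrome gene, was at 2.53, 3.06, 2.24 and 2.71 FPKM at CT4 and at 4.45, 5.18, 4.54 and 4.40 FPKM at CT16, a rise of 0.64 ± 0.15 log2 (adjusted p = 0.028) without overlap. Its call was kept without CT4 replicate 2 or CT16 replicate 1 and lost without any of the other libraries, with an adjusted p up to 0.085 without CT4 replicate 1. Bhlhe40, which encodes the repressor DEC1, rose by 0.59 ± 0.15 log2 (adjusted p = 0.035) with groups that overlapped. It kept its call without CT4 replicate 4, CT16 replicate 1 or CT16 replicate 4, and elsewhere its adjusted p reached 0.12, without CT4 replicate 1. Ciart, a further repressor, changed by 0.62 ± 0.24 log2 (adjusted p = 0.19) and did not pass. None of the 6 genes of clock protein turnover, which encode kinases and ubiquitin ligase parts, passed limma's test or had an unadjusted p under 0.05.

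**Figure D2:**
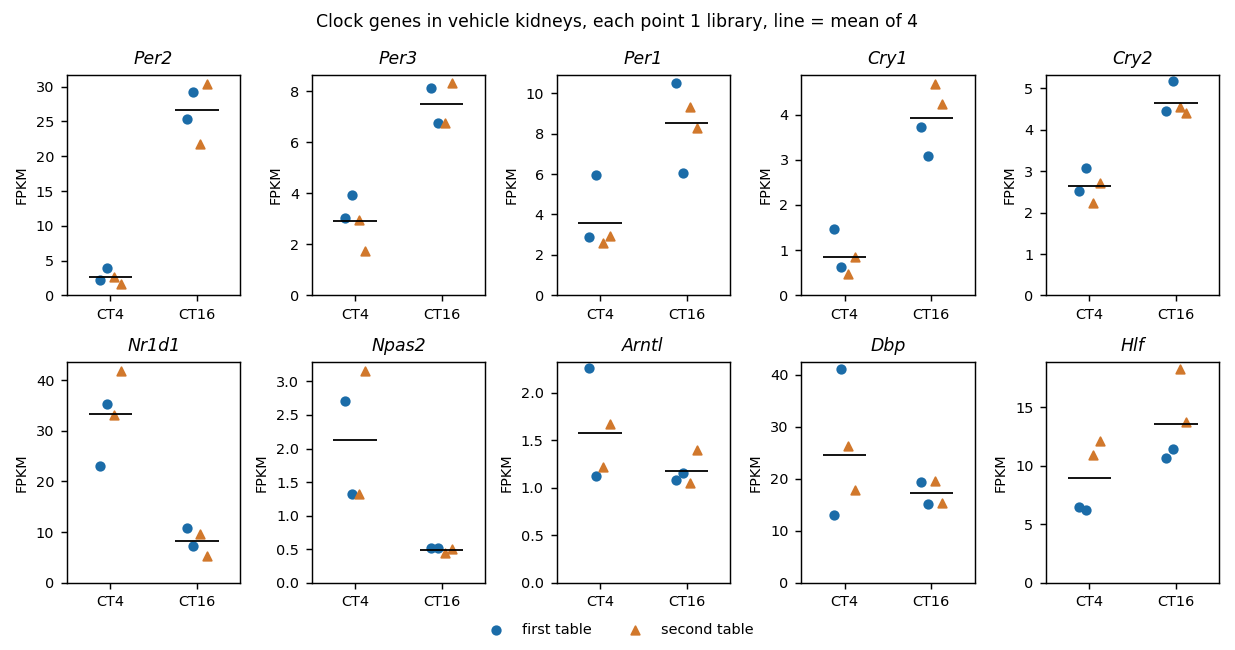
Each panel is 1 clock gene, with time on the horizontal axis and FPKM on the vertical axis. Each point is 1 library (circles, first table; triangles, second table) and each line the mean of 4, and the CT4 and CT16 points of Per2, Nr1d1 and Npas2 do not overlap, while those of Arntl, Dbp and Hlf do.

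In the REV-ERB and ROR arm, Nr1d1 fell. It encodes the repressor REV-ERBalpha (ENSMUSG00000020889, chr11:98767932-98775333), through which the clock holds down its activator genes. It measured 23.1, 35.4, 33.1 and 41.8 FPKM at CT4 and 10.9, 7.28, 9.72 and 5.37 FPKM at CT16. All CT16 libraries lay below all CT4 libraries, and the mean was 4.01-fold lower (change -1.89 ± 0.29 log2, adjusted p = 0.0017). Nr1d1 overlaps Thra on the opposite strand, and no source used here says whether the counting was by strand. Its paralog Nr1d2 changed by -0.20 ± 0.20 log2 (adjusted p = 0.68) and Nfil3, a D-box repressor, by 0.71 ± 0.24 (adjusted p = 0.12), and neither passed.

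Among the activators, Npas2 was the member that moved. It encodes the partner of BMAL1 that can stand in for CLOCK (chr1:39193731-39363236), and its level was 2.71, 1.32, 1.32 and 3.16 FPKM at CT4 and 0.517, 0.513, 0.439 and 0.498 FPKM at CT16. Every CT16 library was lower, by -1.02 ± 0.16 log2 (adjusted p = 0.0022). Arntl stood at 2.27, 1.13, 1.22 and 1.68 FPKM at CT4 and 1.08, 1.16, 1.05 and 1.40 FPKM at CT16, which overlapped (-0.23 ± 0.13 log2, adjusted p = 0.41). Dbp, the D-box activator, also overlapped, with 12.98, 41.1, 26.3 and 17.8 FPKM at CT4 and 19.4, 15.2, 19.5 and 15.4 FPKM at CT16. Its change was -0.36 ± 0.27 log2 (adjusted p = 0.53). Hlf, from the same family, rose by 0.57 ± 0.14 log2 (adjusted p = 0.030). The Hlf call was kept without CT4 replicate 4 or CT16 replicate 4 and lost without each of the others, with an adjusted p up to 0.098 without CT16 replicate 3.

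The 6 vehicle times show where CT4 and CT16 lie on these profiles (means of 4 libraries ± SD). The mean of Per2 was lowest at CT4 (2.63 ± 0.97 FPKM) and highest at CT16 (26.7 ± 3.93). Nr1d1 was highest at CT8 (39.0 ± 10.9 FPKM) and lowest at CT20 (4.22 ± 1.28), and its CT4 mean of 33.3 ± 7.78 lay within that spread of the CT8 mean. Dbp and Arntl had large daily ranges that this pair of times crossed at similar levels. Dbp rose to 93.3 ± 24.4 FPKM at CT8 and fell to 2.77 ± 0.63 at CT20, and was at 24.5 ± 12.3 at CT4 and 17.4 ± 2.41 at CT16. Arntl ranged from 0.224 ± 0.098 FPKM at CT8 to 3.42 ± 0.40 at CT20, and was at 1.57 ± 0.52 at CT4 and 1.17 ± 0.16 at CT16. Outside the core clock, Slc6a19 and Igfbp1 had their highest mean at CT4 and their lowest at CT16, and the clock output Tsc22d3 the reverse. Their highest means lay near those of a neighbouring time. Slc6a19 was at 59.7 ± 11.5 FPKM at CT4 and 59.1 ± 25.6 at CT8, and Igfbp1 at 7.76 ± 3.56 and 5.97 ± 1.23. Tsc22d3 was at 19.2 ± 1.82 FPKM at CT16 and 17.1 ± 5.39 at CT12.

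**Figure D3:**
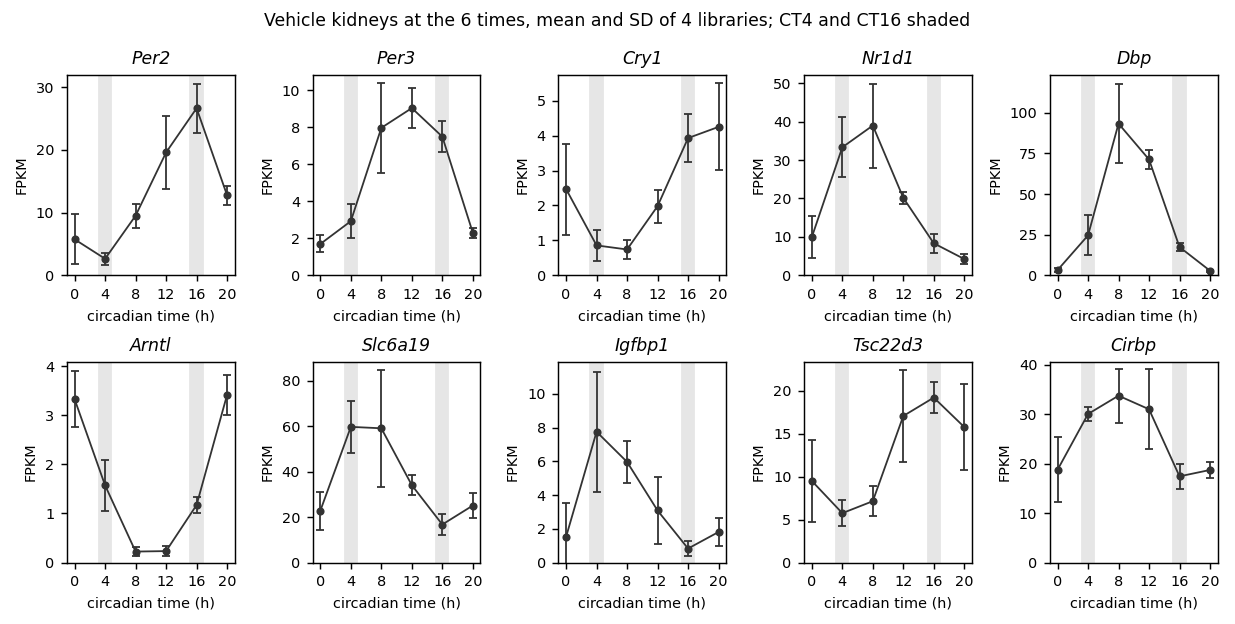
Each panel is 1 gene, with circadian time in hours on the horizontal axis and FPKM on the vertical axis, and points and bars are the mean and SD of 4 vehicle libraries with CT4 and CT16 shaded. By their means, Per2 and Tsc22d3 are lowest at CT4 and highest at CT16, Slc6a19 and Igfbp1 the reverse, and the Dbp and Arntl profiles cross similar levels at both times.

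Of 15 known outputs of the clock that were tested, 7 rose (Tsc22d3, Noct, Usp2, Lonrf3, Coq10b, Tspan4 and Wee1) and 1 fell (Dtx4), with a median change of 0.60, beside 1.07% of all genes higher, 1.36% lower and an all-gene median of -0.02. Tsc22d3, the glucocorticoid-induced leucine zipper (chrX:140539528-140600659), measured 8.00, 5.21, 4.84 and 4.95 FPKM at CT4 and 20.95, 18.5, 20.4 and 17.0 FPKM at CT16. The groups were well apart, with a change of 1.60 ± 0.23 log2 (adjusted p = 0.00077). Noct, which encodes the phosphatase nocturnin (chr3:51224447-51251644), rose from 1.40, 1.34, 0.613 and 0.922 FPKM to 2.94, 4.46, 4.71 and 4.36 FPKM, by 1.31 ± 0.16 log2 (adjusted p = 0.00018). Usp2, a ubiquitin protease gene, rose from 14.6, 16.4, 20.7 and 15.2 FPKM to 28.7, 27.8, 30.6 and 29.3 FPKM, by 0.77 ± 0.13 log2 (adjusted p = 0.0033). These 3 genes had no overlap. Dtx4, which encodes a ubiquitin ligase, fell by 0.67 on the log2 scale (SE 0.12, adjusted p = 0.0051), also without overlap. Wee1, the kinase gene that holds back mitosis, rose by 0.58 ± 0.12 log2 (adjusted p = 0.014), but its call was lost without CT4 replicate 4 (0.48 log2, adjusted p = 0.058).

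Of 17 genes of the glucocorticoid response, Tsc22d3 and Per1 rose and none fell, and the median of the list was 0.04. Among 16 immediate early genes, which respond within minutes to stimuli, 5 rose (Ier3, Jun, Klf2, Klf4 and Nr4a1) and none fell, and all 16 changes were above 0 with a median of 0.40. Fos, Fosb, Egr2, Egr3 and Atf3 were also on the list of 21 but were too low to be tested. Jun, an AP-1 subunit gene, stood at 3.54, 4.55, 4.56 and 8.01 FPKM at CT4 and 11.0, 9.97, 10.8 and 8.93 FPKM at CT16, without overlap (0.90 ± 0.17 log2, adjusted p = 0.0072). Ier3, an early response gene, rose from 16.8, 13.9, 11.4 and 12.6 FPKM to 27.1, 28.9, 24.5 and 26.8 FPKM (0.94 ± 0.18 log2, adjusted p = 0.0069). Klf2 lost its call without CT4 replicate 1, 3 or 4 or CT16 replicate 3 or 4, with an adjusted p up to 0.092 without CT16 replicate 4. Klf4, a zinc finger factor gene, was also clear of overlap (0.77 ± 0.15 log2, adjusted p = 0.0098). The list count fell to 3 without CT4 replicate 1, 3 or 4 or without CT16 replicate 3 or 4, and to 2 with the mitochondrial share as a covariate. Within either table alone none of the 16 passed.

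Of 17 heat shock genes, Hsf1, Hspa8 and Dnaja1 rose, none fell, and 15 changes were above 0 (median 0.35). Dnaja1, an HSP40 gene, kept its call without CT4 replicate 1, CT16 replicate 1 or CT16 replicate 4 and lost it without each of the others, with an adjusted p up to 0.094 without CT16 replicate 2. Hspa8, the constitutive HSP70 (chr9:40800984-40810087), measured 378, 316, 434 and 481 FPKM at CT4 and 474, 764, 771 and 709 FPKM at CT16. CT16 replicate 1 lay just below the highest CT4 library, and the change was 0.75 ± 0.15 log2 (adjusted p = 0.0084). Hsf1, the heat shock transcription factor gene, rose from 12.7, 17.5, 13.5 and 14.8 FPKM to 20.9, 22.4, 19.0 and 21.4 FPKM, without overlap (0.49 ± 0.10 log2, adjusted p = 0.0076). Of 3 cold-inducible RNA-binding genes, Cirbp fell, while 2 had changes above 0 that did not pass (list median 0.25). Cirbp went from 29.2, 29.995, 31.9 and 29.0 FPKM at CT4 to 17.1, 14.4, 17.8 and 20.4 FPKM at CT16, without overlap (-0.76 ± 0.16 log2, adjusted p = 0.013). With the mitochondrial share of each library as a covariate, Cirbp changed by -0.52 log2 (adjusted p = 0.10) and Hspa8 by 0.66 (adjusted p = 0.069), and neither was called. With this covariate, 31 of the 58 named genes past the threshold kept their call. Of 19 genes of the endoplasmic reticulum stress response, Ddit3, Creld2 and Hyou1 rose, none fell, and the median was 0.19. Ddit3, which encodes the stress factor CHOP, rose by 0.83 ± 0.15 log2 (adjusted p = 0.0042), with groups that overlapped at 1 library. That list kept 1 call without CT4 replicate 4 or CT16 replicate 2, and none within either table alone. Hyou1 kept its call without CT16 replicate 4 and lost it without each of the others, with an adjusted p up to 0.13 without CT16 replicate 2.

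Of 18 amino acid transporters tested, 4 fell (Slc6a19, Slc7a7, Slc1a1 and Tmem27) and none rose, with 14 changes below 0 and a median of -0.17. Slc6a19, the main neutral amino acid transporter of the proximal tubule brush border (ENSMUSG00000021565, chr13:73679745-73704865), was at 74.8, 62.3, 53.0 and 48.8 FPKM at CT4 and 23.2, 16.4, 12.8 and 14.5 FPKM at CT16. The lowest CT4 library had over 2 times the level of the highest CT16 library, and the means differed 3.57-fold. The change was -1.79 ± 0.24 log2 (adjusted p = 0.00052). Slc7a7, which exports cationic amino acids across the basolateral side (chr14:54369442-54417780), fell from 18.2, 23.5, 26.4 and 37.9 FPKM to 14.4, 11.0, 9.51 and 10.7 FPKM, without overlap (-1.11 ± 0.21 log2, adjusted p = 0.0056). Slc1a1, a glutamate transporter gene, and Tmem27, which encodes the Slc6a19 partner collectrin, changed by -0.41 ± 0.09 and -0.47 ± 0.11 log2 (adjusted p = 0.019 and 0.025), with overlap. Without CT4 replicate 1 or CT16 replicate 2 the count of 4 fell to 2, Slc6a19 and Slc7a7. It was also 2 when mitochondrially encoded genes were left out of the scaling. All 9 proximal tubule markers had changes below 0, with a median of -0.29, and 1 of them, Slc5a12, passed. The part of those cells in the transporter changes was not tested, and in bulk tissue fewer cells of a type and less RNA per cell cannot be told apart.

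**Figure D4:**
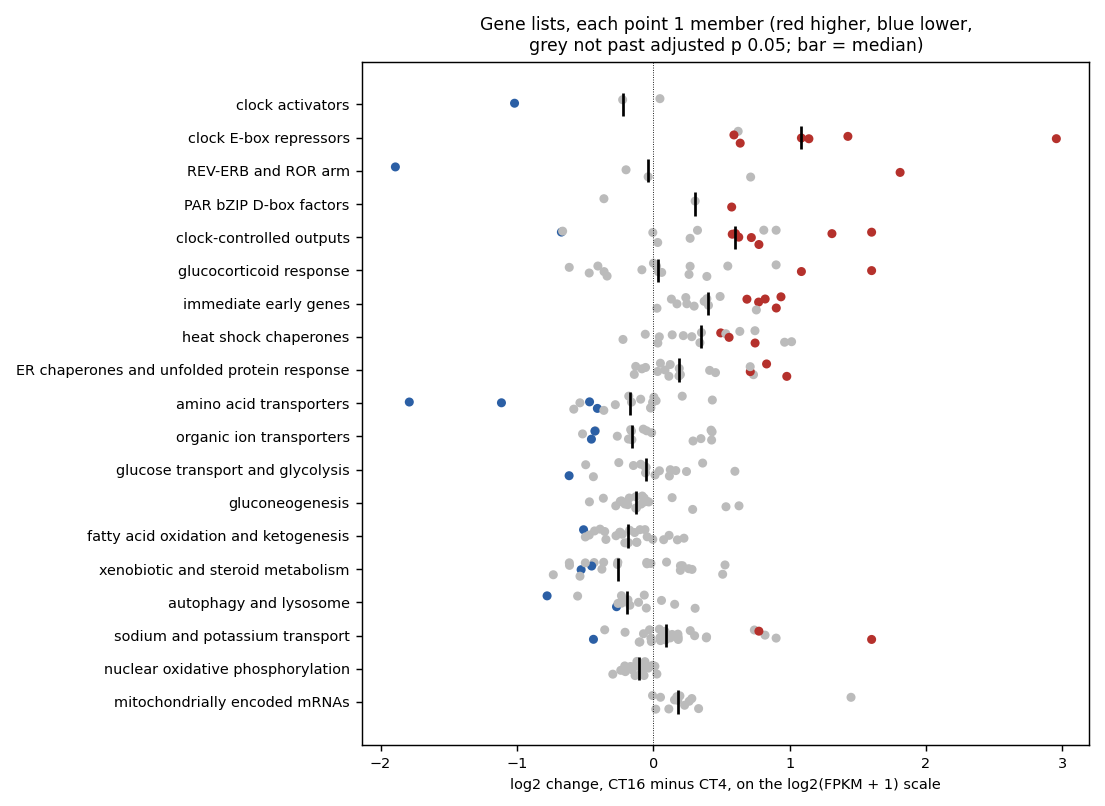
Each point is 1 tested member of a gene list, placed by its log2 change (CT16 minus CT4, log2(FPKM + 1) scale), red where higher, blue where lower and grey where not past an adjusted p of 0.05, and each bar is the median of the list. The clock E-box repressors have the median farthest to the right (1.09), while most members of the metabolic lists are grey, with more of fatty acid oxidation (22 of 26) and gluconeogenesis (17 of 21) below 0 than above.

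Over the pathway lists together, 564 members were tested, of which 29 rose (5.14%) and 22 fell (3.90%), beside 1.07% and 1.36% of all genes tested. The lists were chosen with earlier results of these data known, so these shares are a description. Without CT4 replicate 3, 19 rose, and without CT4 replicate 1 or CT16 replicate 2, 12 fell. Metabolic lists had few calls. None of 21 gluconeogenesis genes passed limma's test, though 10 had an unadjusted p under 0.05, and neither did any of 20 nuclear oxidative phosphorylation genes (3 at that level) or 13 mitochondrial mRNAs (2). Beside these counts, 2260 of all 13633 genes tested were at that level. Of the transport lists, none of 12 water and urea genes (3), 20 phosphate, calcium and magnesium genes (6) or 18 acid-base genes (4) passed. The amino acid stress, NRF2, tubular injury, interferon, complement, extracellular matrix and iron lists had no call either, with 0 to 4 members at an unadjusted p under 0.05. On fragments recovered from the FPKM steps, limma voom called no member of these lists. Of 26 genes of fatty acid oxidation and ketogenesis, Cpt1a fell and 22 changes were below 0 (median -0.19), and of the gluconeogenesis genes 17 were below 0 (median -0.12). Scaled without mitochondrially encoded genes, these medians were -0.11 and -0.05. The all-gene median moved as well, from -0.02 on the deposited scale to 0.04. Cpt1a, the gene of the enzyme that admits long-chain fatty acids to mitochondria, went from 58.5, 64.0, 79.1 and 73.6 FPKM to 44.1, 36.9, 57.0 and 55.3 FPKM, without overlap (-0.51 ± 0.11 log2, adjusted p = 0.013). It was not called with the mitochondrial share as a covariate (-0.42 log2, adjusted p = 0.091). Of 15 insulin and IGF genes, Igfbp1 and Igfbp3 fell. Igfbp1, a secreted protein that binds insulin-like growth factors (ENSMUSG00000020429, chr11:7197782-7202546), had the largest fall of any gene tested. It measured 9.36, 4.19, 5.52 and 11.95 FPKM at CT4 and 0.524, 0.488, 0.853 and 1.46 FPKM at CT16. The mean was 9.34-fold lower and the groups did not overlap (-2.20 ± 0.34 log2, adjusted p = 0.0017), with 10 to 27 fragments per library at CT16. Igfbp3 changed by -0.65 ± 0.14 log2 (adjusted p = 0.013), with -1.01 in the first table and -0.28 in the second, and lost its call without CT4 replicate 1 (-0.55) or CT16 replicate 2 (-0.57).

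Among 14 genes of NAD metabolism, Nampt rose and Acmsd fell. Nampt, the salvage enzyme gene known as a clock target, measured 19.7, 18.6, 22.5 and 24.2 FPKM at CT4 and 24.9, 21.6, 38.6 and 38.9 FPKM at CT16. The rise was 0.49 ± 0.09 log2 (adjusted p = 0.0051) with overlap, and was larger in the second table (0.71) than in the first (0.27). Acmsd, whose enzyme draws tryptophan breakdown away from NAD synthesis, fell from 25.4, 16.9, 29.0 and 39.2 FPKM to 11.9, 14.8, 13.1 and 10.2 FPKM, without overlap (-1.04 ± 0.21 log2, adjusted p = 0.0096). Of 16 autophagy and lysosome genes, Gabarapl1 and Map1lc3b fell, and Map1lc3b (-0.27 log2, adjusted p = 0.049) lost its call without any single library. Gabarapl1, an autophagosome protein gene, went from 218, 221, 307 and 448 FPKM to 146, 109, 233 and 203 FPKM (-0.78 ± 0.13 log2, adjusted p = 0.0033). Its groups overlapped across tables but not within either table. Of 29 sodium and potassium transport genes, Tsc22d3 and Usp2 rose and Kcnj16, a basolateral potassium channel subunit gene, fell (-0.44 ± 0.09 log2, adjusted p = 0.0077).

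In the remaining lists, Srebf1 (of 20 cholesterol genes), Nolc1 (of 22 nucleolar genes) and Wee1 (of 14 cell cycle genes) rose. Slc2a2 (of 17 glucose transport and glycolysis genes), Rpl7a (of 26 ribosomal protein genes), Cyp4b1 and Ces1f (of 23 xenobiotic genes), Abcg2 (of 17 organic ion transporters) and Enpep (of 14 renin-angiotensin genes) fell. Each lost its call without at least 1 of the 8 libraries, Abcg2 without CT4 replicate 1 alone (adjusted p = 0.053) and Cyp4b1 without any of them.

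The other large changes were in single genes of varied function. Slc25a25, a mitochondrial ATP-magnesium carrier gene (chr2:32414487-32451445), rose from 11.0, 7.60, 12.7 and 14.2 FPKM to 22.9, 49.3, 42.4 and 35.4 FPKM (1.62 ± 0.25 log2, adjusted p = 0.0019). Tnnc1, the slow troponin C gene, rose from 2.80, 3.20, 4.19 and 2.26 FPKM to 13.7, 16.2, 7.02 and 8.38 FPKM (1.54 ± 0.28 log2, adjusted p = 0.0048). Neither overlapped. The neighbouring acetyltransferase genes Nat8f5 and Nat8f6 rose by 1.44 ± 0.23 and 1.36 ± 0.16 log2 (adjusted p = 0.0023 and 0.00015). They overlap each other and are near copies, so how their fragments were divided is uncertain. The miRNA hairpin models Mir7027 and Mir7052 were also among the 15 largest rises and kept their calls whichever library was left out. Mir7027 lies inside Ube3b and had 0 to 1 fragments at CT4 and 2 to 8 at CT16, and Mir7052 lies inside Josd2 and had 4 to 12 and 15 to 29. These are fragments of an mRNA library within hairpin gene models, not mature miRNAs.

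Among the larger falls, Neil2, a DNA repair glycosylase gene, went from 4.37, 3.63, 4.51 and 3.48 FPKM to 1.45, 1.23, 1.04 and 1.58 FPKM (-1.11 ± 0.20 log2, adjusted p = 0.0051). Maf, a bZIP transcription factor gene, went from 33.3, 24.7, 31.8 and 31.3 FPKM to 16.7, 9.55, 12.03 and 18.5 FPKM (-1.08 ± 0.19 log2, adjusted p = 0.0044). Ddc, whose enzyme makes dopamine in the proximal tubule, went from 9.55, 7.36, 12.96 and 20.4 FPKM to 4.89, 3.09, 6.26 and 6.64 FPKM (-1.08 ± 0.19 log2, adjusted p = 0.0033). All 3 were lower in every CT16 library than in any CT4 library. Arsg, the lysosomal arylsulfatase G gene, fell likewise (-1.04 ± 0.16 log2, adjusted p = 0.0019). Slc5a12, a sodium-lactate transporter gene and proximal tubule marker, changed by -1.22 ± 0.31 log2 (adjusted p = 0.040), with CT16 replicate 1 at 23.3 FPKM against 8.01 to 10.1 in the other CT16 libraries. Its call was kept without that library and lost without each of the other 7, with an adjusted p up to 0.12 without CT16 replicate 2.

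Marker genes of medullary segments varied between libraries of the same time. Principal cell markers, of which all 6 were measured, summed to 658, 682, 330 and 317 FPKM at CT4 and 1259, 735, 764 and 493 FPKM at CT16. Aqp2, their water channel gene, was at 402, 424, 90.8 and 116 FPKM at CT4 and 956, 503, 464 and 229 FPKM at CT16, which overlapped (1.20 ± 0.53 log2, adjusted p = 0.26). No principal cell, thick ascending limb or inner medulla marker passed limma's test, with 1 of 6, 4 of 5 and 2 of 9 at an unadjusted p under 0.05, and their changes had medians of 0.39, 0.55 and 0.44. Beside these counts, 2260 of all 13633 genes tested were at that level. On recovered fragments, limma voom called 1 of the 5 thick ascending limb markers higher. The part of tissue sampling in these levels was not tested. Ehd3, an endothelial gene, passed at 0.50 ± 0.12 log2 (adjusted p = 0.030). It kept its call without CT4 replicate 4 or CT16 replicate 3, and elsewhere its adjusted p reached 0.10, without CT4 replicate 1.

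The share of FPKM from mitochondrially encoded genes was 27.9% ± 10.8 at CT4 and 32.2% ± 13.8 at CT16 (SD, n = 4 each). The difference of 4.24 percentage points (6.84 in the first table, 1.64 in the second) gave p = 0.17 in a two-sided exact permutation test within tables. With 36 arrangements, that test cannot go below 0.056. The 2 mitochondrial rRNAs took 0.364% ± 0.148 at CT4 and 0.643% ± 0.267 at CT16, at that smallest p. Of the mitochondrial genome, 2 genes passed the threshold in the gene-wise fit. The rRNA gene mt-Rnr2 rose by 0.97 ± 0.23 log2 (adjusted p = 0.025), and the tRNA gene mt-Tm by 1.37 ± 0.34 (adjusted p = 0.034). The mt-Tm call was kept only without CT16 replicate 4, and otherwise its adjusted p reached 0.12, without CT4 replicate 3.

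The same pair of times was compared in the D-Ala kidneys to see whether any change was particular to vehicle. No gene passed a limma test of the difference between the 2 time changes (smallest adjusted p = 0.99, with 464 genes at an unadjusted p under 0.05). In D-Ala, 201 genes passed (1.47%). Of the 332 genes called in vehicle, 321 changed in the same direction in D-Ala, 140 of the 146 higher and 181 of the 186 lower genes. Over all genes tested, 56.9% had a D-Ala change above 0. The 91 genes called under both treatments were 27.4% of the vehicle calls and 45.3% of the D-Ala calls, and all 91 had the same direction. Changes in D-Ala had a median of 0.45 over the genes higher in vehicle and -0.31 over the lower ones, beside 0.03 over all genes. Per2 changed by 2.36 ± 0.18 log2 in D-Ala, Nr1d1 by -1.63 ± 0.33, Igfbp1 by -2.17 ± 0.33 and Slc6a19 by -1.05 ± 0.26. These 4 passed in D-Ala as well. Per1 (0.43 ± 0.20, adjusted p = 0.36) and Slc7a7 (-0.50 ± 0.23, adjusted p = 0.35) passed in vehicle and not in D-Ala, but the difference between treatments did not pass for either.

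**Figure D5:**
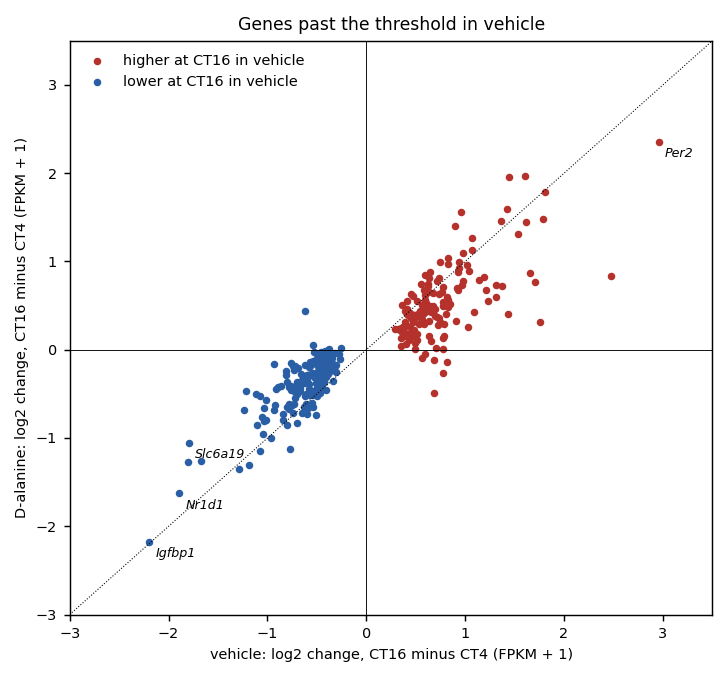
Each point is 1 of the 332 genes past the threshold in vehicle, with its log2 change (CT16 minus CT4) in vehicle on the horizontal axis and in D-Ala on the vertical axis, red where higher and blue where lower in vehicle, and the dotted line marks equal changes. The genes were chosen by their vehicle values, and 321 of them lie on the same side of 0 in D-Ala.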

How the data were processed

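RNA was extracted from kidney and made into mRNA libraries, per the labels' protocols. The authors deposited FPKM per gene and library in 2 tables of 24 libraries. The build was GRCm38 (mm10), per the submitters' processing notes. No source used here names an aligner or counter, or says whether strand was used. Replicate numbers follow accession order and pair nothing. The gene lists and comparison were chosen with earlier results of these data known.

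Genes with at least 1 FPKM in 12 of 48 libraries were kept (13633). limma 3.58.1 (R 4.3.3, trended moderation) was fitted to log2(FPKM + 1) of the 24 vehicle libraries with time and table as terms, leaving 17 residual degrees of freedom. The difference between treatments came from the same model over 48 libraries. Depth was recovered from the FPKM worth of 1 fragment with GENCODE M21 exon lengths, and 97.0% to 97.5% of low values of single-transcript genes came out whole within 0.05 fragments in the 8 libraries. Pearson's r across genes between replicates was 0.974 to 0.984 where they shared a table and 0.946 to 0.965 where they did not, and no pair matched within sampling noise. Named genes are the 15 largest changes past the threshold in each direction, all members of the core clock and mitochondrial mRNA lists, and up to 4 members of other lists with the smallest p, from which the text gives a selection. Other list members past the threshold, and mt-Rnr2, were named after their values were seen. The alternatives were other pseudocounts, filters, scalings, table terms, sets of libraries and moderation. Voom on recovered fragments and the mitochondrial share as a covariate were added after seeing the data. The fit was tested on simulated data. Results for a few genes are not reported here.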

Additional observations from a re-analysis of the deposited data

Results flagged for a closer look

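The 65 named genes in the text were checked at each time for a library far from the other 3 of its time. Chance meets this check in about 1 of 20 groups, and 9 of 130 did so. At CT4, Per1 stood at 5.93 FPKM in replicate 2, Tsc22d3 at 8.00 FPKM in replicate 1, Creld2 at 25.3 FPKM in replicate 3 and the hairpin model Mir7027 at 0.964 FPKM in replicate 2, each above the others, and Rpl7a was also above them at 131 FPKM in replicate 4. Abcg2 was below the other CT4 libraries at 32.9 FPKM in replicate 2. At CT16, Slc5a12 stood at 23.3 FPKM in replicate 1, Klf2 at 16.9 FPKM in replicate 4 and Wee1 at 3.85 FPKM in replicate 4, again above the others.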

How the results depend on the processing

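No paired analysis was possible because the labels carry no replicate number, and the numbers used here follow accession order. Against 332 genes (146 higher, 186 lower), 209 (94, 115) passed with no filter, 68 (40, 28) with no table term, 139 (69, 70) from the 8 libraries alone and 116 (78, 38) with the mitochondrial share as a covariate. The first table alone gave 10 (4, 6) and the second 124 (92, 32). The TPM scale gave 94 higher genes, and scaling without mitochondrially encoded genes gave 231 higher and 102 lower. Leaving out 1 library gave 166 to 238 genes, 67 to 116 higher and 73 to 134 lower. Of the pathway list members, 29 higher and 22 lower became 2 and 3 in the first table, 15 and 3 in the second, 16 and 12 from the 8 libraries, and 18 and 9 with the covariate. Among the 58 named genes past the threshold, 34 kept their call from the 8 libraries alone and 31 with the covariate. There were 13 lower members without mitochondrially encoded genes, and 19 to 26 higher and 12 to 18 lower with 1 library left out. Nr1d2, not called, turned to 0.031 log2 in the second table alone. Fewer libraries enter the table, 8-library and left-out fits and more genes the unfiltered one, and elsewhere the cause was not tested. The difference between treatments gave 0 genes in each of 13 alternatives. The other settings kept each all-gene count within 1.5 times. Quantile normalization gave 52.3% of calls higher, no table term 58.8%, the second table alone 74.2% and the covariate 67.2%. Changes of genes with few fragments, such as Mir7027 and Igfbp1 at CT16, are limited by depth.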
